A study of Mus musculus with 12 samples.

Results

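The genes described here are 5 neurotrophic ligands, Bdnf, Ntf3, Gdnf, Artn and Nrtn, and 4 receptor genes, Ret, Gfra1, Gfra2 and Gfra3, in mouse skin. These 9 genes were taken by symbol from the 53379 gene IDs of the count tables, and each matched 1 ID. The set was chosen with earlier results of these data known. Neurotrophic factors are secreted proteins that keep neurons alive and guide their axons to the tissue that makes them. Bdnf and Ntf3 encode neurotrophins, which act through TRK receptor kinases and the shared receptor p75. Gdnf, Nrtn and Artn encode ligands of the GDNF family, which bind the membrane-anchored co-receptors GFRα1, GFRα2 and GFRα3 and signal through the receptor kinase RET. In skin, these factors come from keratinocytes, hair follicles and Schwann cells, and supply the sensory and sympathetic fibres.

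Whole skin was profiled by bulk RNA sequencing in 4 groups of 3 libraries each. Injured Nf1-KO skin and injured control skin were taken 14 days after injury, and uninjured Nf1-KO skin and uninjured control skin were intact. The Nf1-KO animals were Prss56Cre, R26tdTom and Nf1flox/-, and the controls were Prss56Cre and R26tdTom, so all 4 groups carried the Cre and the tdTomato reporter. All animals were 3 months old, on a strain given as C57BL/6 & B6D2. Prss56Cre is active in neural crest boundary cap cells, which give Schwann cells and some sensory neurons, so most cell types of the skin are not targeted, and Nf1flox/- leaves untargeted cells with 1 intact copy of Nf1. The labels do not say that the 3 samples of a group are separate animals, and the p-values then measure the spread between these samples.

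Library totals ran from 8817013 to 16809687 counts. Nf1, the targeted gene, averaged 11.7 ± 3.67 CPM in injured Nf1-KO skin and 12.7 ± 3.61 CPM in injured control skin, and 9.50 ± 0.505 CPM in uninjured Nf1-KO skin and 11.8 ± 2.54 CPM in uninjured control skin (SD, n = 3 each). The counts of whole skin therefore do not separate the genotypes at Nf1. CPM here is the count scaled to a common library size with TMM factors, which even out library composition. The 4 basal keratinocyte markers summed to 6810 CPM or more in every library. Sex markers separated the skin states in both genotypes. Xist, which is transcribed in female cells, averaged 627 CPM in injured Nf1-KO skin and 573 CPM in injured control skin, against 1.06 CPM in uninjured Nf1-KO skin and 1.53 CPM in uninjured control skin. Of 4 Y-linked genes, 4 had no count in injured Nf1-KO skin and 3 had none in injured control skin, while all 4 were present in uninjured skin. Sex and injury therefore cannot be told apart in any comparison of injured with uninjured skin. Ribosomal RNA-like counts, a sign of RNA and library quality, also differed with skin state: they were 2.83 to 6.98% of counts in injured Nf1-KO skin and 3.18 to 7.998% in injured control skin, against 2.37 to 3.85% in uninjured Nf1-KO skin and 1.48 to 2.20% in uninjured control skin, with no overlap in control skin.

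A low background of counts spread over genes also differed between skin states. It was measured on 1454 olfactory and vomeronasal receptor genes, which serve smell and pheromone sensing. Per kilobase (kb) of exon it was 0.00224 to 0.0531 CPM in injured Nf1-KO skin and 0.00225 to 0.00641 CPM in injured control skin. In uninjured skin it was 0.110 to 0.206 CPM per kb in Nf1-KO libraries and 0.0944 to 0.332 CPM per kb in control libraries. Scaled to each gene's length, this background would give at most 12.8% of any count of the 9 genes in injured skin. In uninjured skin it would give 27.1 to 142% of the Artn counts and 21.5 to 60.4% of the Ret counts of control libraries, but at most 0.168% of any Nrtn count and at most 4.03% of any Ntf3 count. Artn and Ret in uninjured skin are the genes whose counts stand closest to this background.

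**Figure D1:**
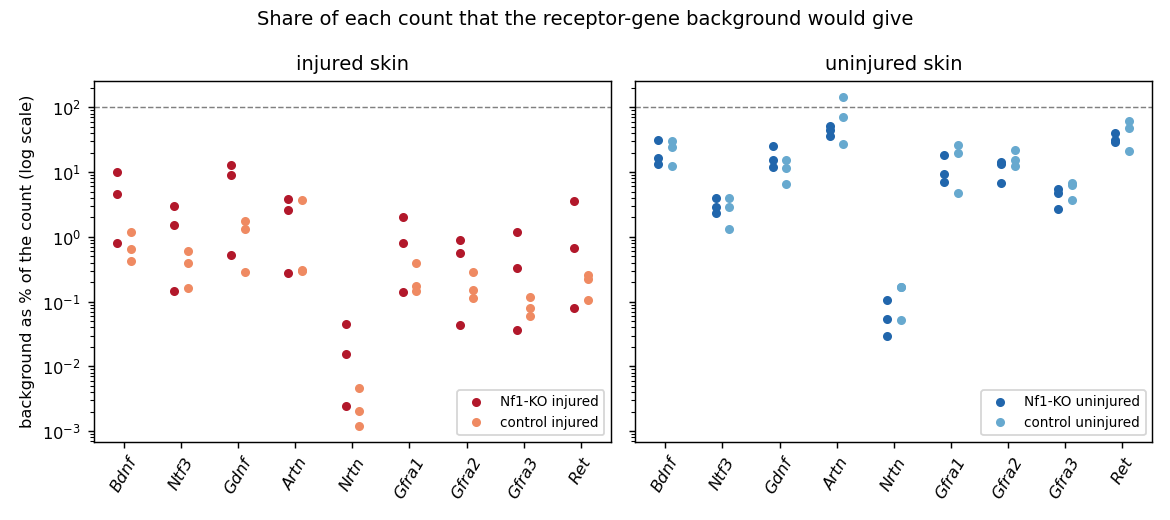
Share of each gene's count, in percent on a log axis, that the background measured on 1454 olfactory and vomeronasal receptor genes would give, for each library; the dashed line marks a count that equals the background. Artn and Ret in uninjured skin sit nearest that line, and Nrtn sits far below it in every library.

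RefSeq promoter windows on GRCm38.p6 were found for 6 of the 9 genes and not for Ret, Gfra2 and Gfra3. Shown are the 250 bases before the start for the 3 ligands that fell after injury in at least 1 genotype, Ntf3 and Gdnf and Nrtn, each written 5′ to 3′ on the strand of its gene. Capitals mark matches, on either strand, to 6 motifs: the GC box GGGCGG, the CCAAT box CCAAT, the TATA box TATAAA, the E-box CACGTG, the SOX motif AACAAT and the cyclic AMP response element TGACGTCA. A second Ntf3 window overlaps an annotated exon and is left out.
Ntf3, chr6:126164961-126165210, minus strand: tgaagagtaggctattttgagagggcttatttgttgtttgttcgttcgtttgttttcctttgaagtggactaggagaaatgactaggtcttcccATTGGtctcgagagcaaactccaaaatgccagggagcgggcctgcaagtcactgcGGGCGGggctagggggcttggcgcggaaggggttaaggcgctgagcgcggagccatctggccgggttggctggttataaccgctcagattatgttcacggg
Gdnf, chr15:7809798-7810047, plus strand: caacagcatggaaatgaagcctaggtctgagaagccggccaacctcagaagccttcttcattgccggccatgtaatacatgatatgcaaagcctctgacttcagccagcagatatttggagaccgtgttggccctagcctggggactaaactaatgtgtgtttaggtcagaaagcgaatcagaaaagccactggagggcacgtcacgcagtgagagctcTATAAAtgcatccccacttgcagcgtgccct
Gdnf, chr15:7813477-7813726, plus strand: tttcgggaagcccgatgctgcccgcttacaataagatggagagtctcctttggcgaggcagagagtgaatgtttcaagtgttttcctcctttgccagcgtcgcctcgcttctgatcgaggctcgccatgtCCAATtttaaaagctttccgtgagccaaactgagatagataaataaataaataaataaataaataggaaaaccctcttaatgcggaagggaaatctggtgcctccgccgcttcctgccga
Nrtn, chr17:56757549-56757798, minus strand: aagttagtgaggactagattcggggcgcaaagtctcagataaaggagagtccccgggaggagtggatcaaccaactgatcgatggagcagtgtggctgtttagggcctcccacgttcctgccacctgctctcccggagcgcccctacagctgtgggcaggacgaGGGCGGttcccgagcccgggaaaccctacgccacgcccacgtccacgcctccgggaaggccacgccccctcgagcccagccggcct

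Counted back from the start, the Ntf3 window held a GC box from base -101 and a CCAAT box on the opposite strand from base -156. The first Gdnf window held a TATA box from base -31, the second a CCAAT box from base -120, and the Nrtn window a GC box from base -86. No matches overlapped each other, and no motif was common to Ntf3, Gdnf and Nrtn in these windows. Among 32851 RefSeq promoters cut to the same length, 32.7% held a GC box, 33.8% a CCAAT box and 12.4% a TATA box, 6.02% the E-box, 9.42% the SOX motif and 1.55% the cyclic AMP response element. A match is a description of the letters and not a bound site. The Nrtn window was 64.8% G or C and the Ntf3 window 54.0%, and the Gdnf windows were 50.8% and 46.8%, beside a median of 52.4% over all promoters.

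The genes lie on separate loci of GRCm38, the assembly also named mm10. Ntf3 (ENSMUSG00000049107) spans chr6:126101412-126166910 on the minus strand and Ret (ENSMUSG00000030110) chr6:118151745-118197718 on the minus strand. Gdnf (ENSMUSG00000022144) spans chr15:7810846-7837575 on the plus strand, Nrtn (ENSMUSG00000039481) chr17:56751325-56757530 on the minus strand, and Artn (ENSMUSG00000028539) chr4:117926162-117929763 on the minus strand. Bdnf (ENSMUSG00000048482) spans chr2:109674700-109727007 on the plus strand. Gfra1 (ENSMUSG00000025089) spans chr19:58235604-58455909 on the minus strand, Gfra2 (ENSMUSG00000022103) chr14:70890120-70979838 on the plus strand, and Gfra3 (ENSMUSG00000024366) chr18:34689898-34720387 on the minus strand. Exons of Bdnf share 896 bases with the antisense gene Gm45346, and exons of Gfra1 share 416 bases with the antisense gene Gm16277. The library kit does not mark the strand, so reads in those stretches cannot be assigned to either gene.

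Levels of different genes were compared per kb of exon. Nrtn stood far above the other 8 genes in every group, at 117 ± 17.0 CPM per kb in injured Nf1-KO skin, 174 ± 30.6 in injured control skin, 263 ± 118 in uninjured Nf1-KO skin and 159 ± 22.3 in uninjured control skin (SD, n = 3 each). No other gene averaged above 7.19 CPM per kb, the level of Ntf3 in uninjured control skin. The order below Nrtn differed between skin states. In injured Nf1-KO skin it was Gfra3 at 5.77 and Gfra2 at 5.13 CPM per kb, whose ranges overlapped, then Ret, Gfra1, Ntf3 and Artn, each overlapping the next, then Bdnf and Gdnf. In injured control skin Gfra3 at 4.85 CPM per kb stood apart from the rest, and from Gfra2 at 2.27 CPM per kb down to Gdnf at 0.571 CPM per kb each range overlapped the next. In uninjured Nf1-KO skin the order was Ntf3 at 4.60 and Gfra3 at 3.49 CPM per kb, which overlapped, then Gfra1, Gfra2, Gdnf and Bdnf, each overlapping the next, and last Ret and Artn, which overlapped. In uninjured control skin Ntf3 at 7.19 and Gfra3 at 3.36 CPM per kb each stood apart, Gdnf, Gfra1, Gfra2 and Bdnf followed with overlapping ranges, and Ret and Artn were again last. Ret, at 2.48 CPM per kb in injured Nf1-KO skin and 2.18 in injured control skin, was thus above Ntf3 by mean level after injury and below it in intact skin.

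**Figure D2:**
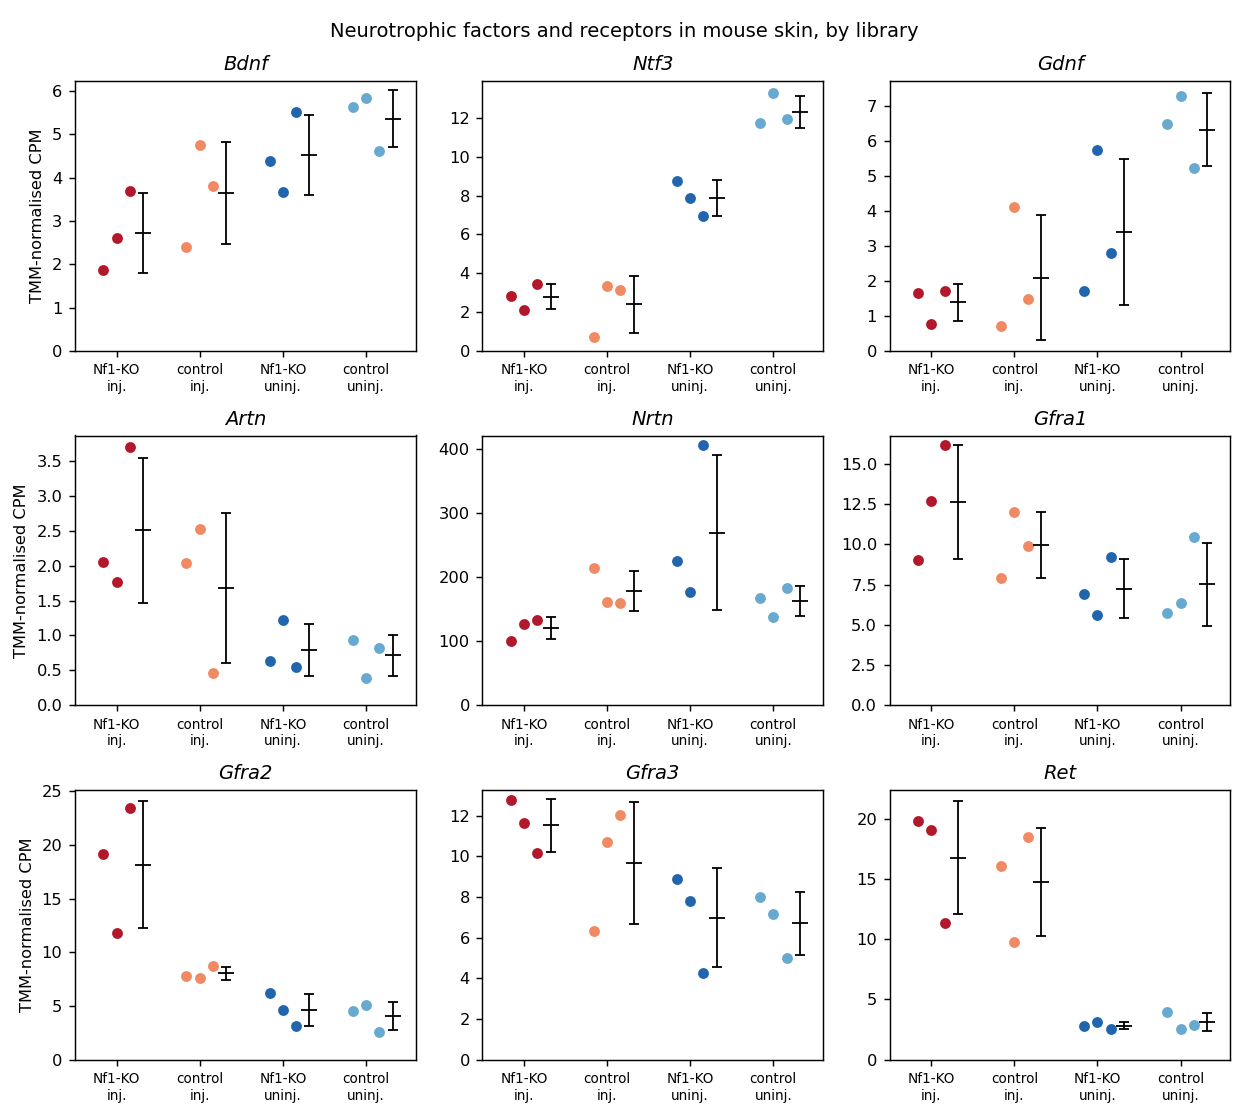
TMM-normalised CPM (vertical axes, starting at 0) of the 9 genes in the 12 libraries. Points are libraries and bars are the mean ± SD of the 3 libraries of a group. Ret and Gfra2 are higher in injured than in uninjured skin and Ntf3 is lower, with no overlap in either genotype.

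The first comparison asked how injured control skin differed from uninjured control skin. Ret and Gfra2 rose, and Ntf3 and Gdnf fell. Thus 4 of the 9 genes were called at adjusted p under 0.05 in edgeR's quasi-likelihood test with Benjamini-Hochberg adjustment over 23635 genes, against 55.3% of all genes tested. The members' share is below that background and is not a result about them as a set. Their median log2 fold change was 0.40, beside -0.21 over all genes, and the groups did not overlap for 4 of the 9 genes, against 62.4% of all genes.

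Among the neurotrophins of control skin, Ntf3, the ligand of TRKC, had 0.711, 3.36 and 3.14 CPM in injured libraries, against 11.8, 13.3 and 11.9 CPM in uninjured libraries. Every injured library lay well below every uninjured one. Ntf3 was 5.03-fold lower, a log2 fold change of -2.33 (SE 0.41, adjusted p = 0.000322, edgeR). Bdnf, the ligand of TRKB, had 2.40, 4.75 and 3.81 CPM in injured control skin, against 5.64, 5.83 and 4.61 CPM in uninjured control skin. The ranges overlapped, and the log2 fold change of -0.54 (95% interval -1.30 to 0.21, adjusted p = 0.209, edgeR) did not pass the test.

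Of the GDNF family ligands of control skin, Gdnf alone was called. Gdnf, which signals through GFRα1 and RET, had 0.711, 4.12 and 1.47 CPM in injured libraries, against 6.49, 7.29 and 5.24 CPM in uninjured libraries. The injured libraries were spread widely but all lay below the uninjured ones. Gdnf was 2.96-fold lower, a log2 fold change of -1.57 (SE 0.55, adjusted p = 0.0244, edgeR). This call was lost without injured control replicate 1 (adjusted p = 0.0869) or 3 (adjusted p = 0.0942), and without uninjured control replicate 1 or 2 (adjusted p = 0.0700 each). It was also lost without both of those uninjured libraries (adjusted p = 0.232), which leaves 1 uninjured control library, and with a covariate for the ribosomal RNA-like share, at -1.05 (adjusted p = 0.316). Nrtn, the ligand of GFRα2, had 214, 161 and 159 CPM in injured control skin, against 167, 138 and 183 CPM in uninjured control skin. The ranges overlapped, with a log2 fold change of 0.13 (95% interval -0.43 to 0.68, adjusted p = 0.703, edgeR), and the sign turned to -0.02 when the background was subtracted and to -0.30 with that covariate. Artn, the ligand of GFRα3, had 2.04, 2.53 and 0.468 CPM in injured control skin, against 0.941, 0.384 and 0.820 CPM in uninjured control skin. Injured replicate 3 lay among the uninjured libraries, and the log2 fold change of 1.23 (95% interval -0.13 to 2.58, adjusted p = 0.114, edgeR) did not pass. Artn did pass once the background was subtracted, at 2.37 (adjusted p = 0.0331), or without injured control replicate 3, at 1.72 (adjusted p = 0.0278). In uninjured control replicates 1, 2 and 3 the background would give 7.03 of 10, 7.09 of 5 and 3.52 of 13 Artn counts. Subtracted counts below 0 were set to 0, so the fold after subtraction rests on few reference counts.

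Among the receptors of control skin, Ret had 16.1, 9.75 and 18.4 CPM in injured libraries, against 3.95, 2.53 and 2.90 CPM in uninjured libraries. The lowest injured library was above the highest uninjured one by a wide margin. Ret was 4.73-fold higher, a log2 fold change of 2.24 (SE 0.32, adjusted p = 6.66e-05, edgeR), and 2.89 with the background subtracted. Gfra2 had 7.82, 7.60 and 8.69 CPM in injured control skin, against 4.51, 5.14 and 2.59 CPM in uninjured control skin. Gfra2 was 1.98-fold higher, a log2 fold change of 0.98 (SE 0.34, adjusted p = 0.0203, edgeR), with no overlap. Without uninjured control replicate 3, its lowest library, the adjusted p was 0.0528, and with the ribosomal RNA-like covariate the log2 fold change was 0.68 (adjusted p = 0.258). Gfra1 had 7.91, 12.03 and 9.89 CPM in injured control skin, against 5.74, 6.37 and 10.47 CPM in uninjured control skin. Gfra3 had 6.31, 10.7 and 12.03 CPM in injured control skin, against 7.99, 7.14 and 4.99 CPM in uninjured control skin. Both overlapped between skin states, with log2 fold changes of 0.40 for Gfra1 (95% interval -0.26 to 1.05, adjusted p = 0.29) and 0.54 for Gfra3 (95% interval -0.14 to 1.22, adjusted p = 0.164, edgeR). Gfra1 passed without uninjured control replicate 3, at 0.83 (adjusted p = 0.0383), and Gfra3 passed without injured control replicate 1, at 0.79 (adjusted p = 0.0495).

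The second comparison asked the same of Nf1-KO skin. Its libraries were not compared in the first, but all 12 libraries share 1 fit, so the 2 comparisons are not independent. Ret and Gfra2 again rose and Ntf3 again fell, while the fourth call was a fall of Nrtn. In all, 4 of the 9 genes were called, against 37.4% of all genes tested, a share near the background. The median log2 fold change of the 9 genes was 0.72, beside -0.09 over all genes. The groups did not overlap for 6 of the 9 genes, against 51.6% of all genes: Artn, Gfra2, Gfra3 and Ret were higher in each injured library, and Ntf3 and Nrtn were lower. Without injured control replicate 2, which is not one of the libraries compared but enters the shared fit, 7 of the 9 were called, with Gdnf, Artn and Gfra1 added.

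Among the ligands of Nf1-KO skin, Ntf3 had 2.82, 2.12 and 3.44 CPM in injured libraries, against 8.78, 7.89 and 6.96 CPM in uninjured libraries. It was 2.82-fold lower, a log2 fold change of -1.497 (SE 0.40, adjusted p = 0.00894, edgeR), and every injured library lay below every uninjured one. With a covariate for ribosomal RNA-like counts the fall was -1.12 and no longer called (adjusted p = 0.0897). Nrtn had 100.4, 127 and 133 CPM in injured Nf1-KO skin, against 225, 177 and 406 CPM in uninjured Nf1-KO skin. The uninjured libraries varied widely, replicate 3 being the highest of all 12, but all were above the injured ones. Nrtn was 2.24-fold lower, a log2 fold change of -1.16 (SE 0.27, adjusted p = 0.0033, edgeR). Without uninjured Nf1-KO replicate 3 the fall was -0.71 and was still called.

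Gdnf in Nf1-KO skin had 1.67, 0.776 and 1.72 CPM in injured libraries, against 1.70, 5.75 and 2.80 CPM in uninjured libraries. Uninjured replicate 1 lay within the injured range, and the log2 fold change of -1.31 (95% interval -2.52 to -0.09, adjusted p = 0.0828, edgeR) did not pass. Artn had 2.05, 1.76 and 3.70 CPM in injured Nf1-KO skin, against 0.627, 1.23 and 0.542 CPM in uninjured Nf1-KO skin. All injured libraries were higher, but on 100 counts in injured and 29 counts in uninjured skin the log2 fold change of 1.62 (95% interval 0.28 to 2.96) had an adjusted p of 0.0542 in edgeR, and 0.0499 with the background subtracted. That background would give 36.4 to 52.3% of the Artn counts of uninjured Nf1-KO libraries. Bdnf had 1.86, 2.61 and 3.70 CPM in injured Nf1-KO skin, against 4.39, 3.68 and 5.51 CPM in uninjured Nf1-KO skin. These ranges met at injured replicate 3, and the log2 fold change of -0.74 (95% interval -1.51 to 0.04, adjusted p = 0.12, edgeR) did not pass.

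Ret in Nf1-KO skin had 19.8, 19.1 and 11.4 CPM in injured libraries, against 2.78, 3.14 and 2.53 CPM in uninjured libraries. It was 5.93-fold higher, a log2 fold change of 2.57 (SE 0.32, adjusted p = 2.14e-05, edgeR), with no overlap. Gfra2 had 19.2, 11.9 and 23.5 CPM in injured Nf1-KO skin, against 6.18, 4.60 and 3.16 CPM in uninjured Nf1-KO skin. It was 3.90-fold higher, a log2 fold change of 1.96 (SE 0.34, adjusted p = 0.000344, edgeR), and injured replicate 2, the lowest of the 3, was still above all uninjured libraries. Gfra1 had 9.04, 12.7 and 16.2 CPM in injured Nf1-KO skin, against 6.90, 5.59 and 9.22 CPM in uninjured Nf1-KO skin. Gfra3 had 12.8, 11.6 and 10.2 CPM in injured Nf1-KO skin, against 8.87, 7.82 and 4.25 CPM in uninjured Nf1-KO skin. Gfra1 overlapped slightly and Gfra3 did not, and neither passed, with log2 fold changes of 0.80 (95% interval 0.14 to 1.46, adjusted p = 0.0528) and 0.72 (95% interval 0.05 to 1.40, adjusted p = 0.0842, edgeR). Gfra1 did pass in 8 of 21 alternatives, among them without injured Nf1-KO replicate 1 (adjusted p = 0.0335) or uninjured Nf1-KO replicate 3 (adjusted p = 0.0349). Gfra3 passed with the ribosomal RNA-like covariate, at 1.03 (adjusted p = 0.0411).

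**Figure D3:**
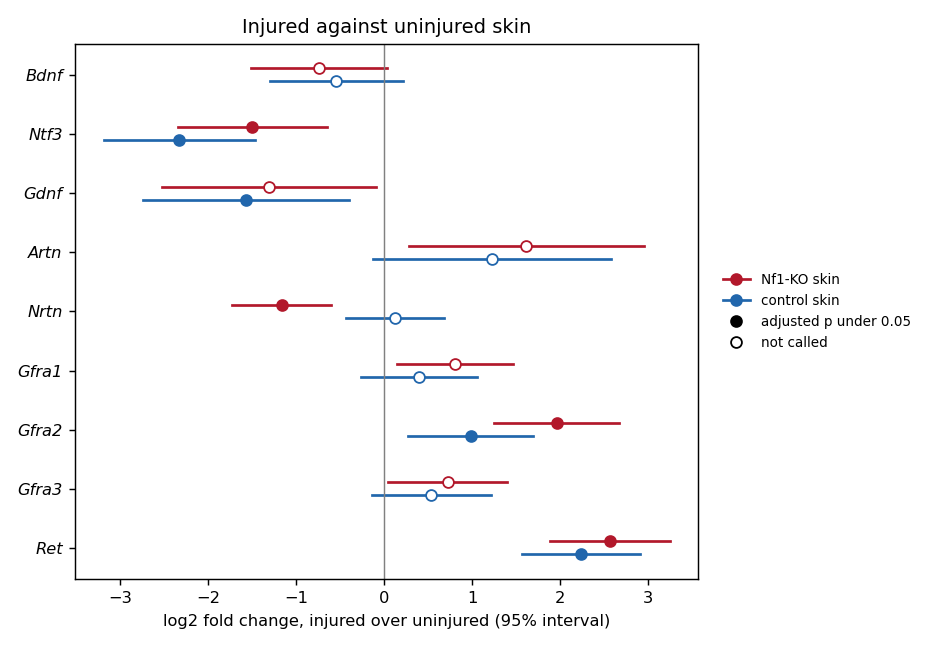
Log2 fold change of injured over uninjured skin with its 95% interval for the 9 genes, in Nf1-KO skin (red) and control skin (blue); filled points are called at adjusted p under 0.05. Ret lies at 2.57 in Nf1-KO skin and 2.24 in control skin, and Nrtn lies at -1.16 in Nf1-KO skin and 0.13 in control skin.

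Markers of many cell types differed between injured and uninjured skin together with these genes. Beside the counts below, 19.1% of all genes were called higher and 18.4% lower in Nf1-KO skin. In control skin 22.8% were called higher and 32.5% lower. All 7 hair follicle keratin and matrix markers rose in both genotypes, and their summed level was 8680 to 29100 CPM in injured Nf1-KO skin, 10900 to 18300 in injured control skin, 20.3 to 77.6 in uninjured Nf1-KO skin and 17.0 to 22.8 in uninjured control skin. The 4 fibroblast markers and the 4 adipocyte markers also rose in both genotypes, as did the 4 mast cell, the 4 melanocyte and the 3 blood endothelium markers. Macrophage markers rose at 5 of 5 genes in Nf1-KO skin and 4 of 5 in control skin. Skeletal muscle markers rose at 7 of 7 genes in Nf1-KO skin and 6 of 7 in control skin. Of the 4 basal keratinocyte markers 3 fell in both genotypes, Krt5, Itga6 and Col17a1, and Col17a1, a hemidesmosome collagen, had log2 fold changes of -2.71 in Nf1-KO skin (adjusted p = 4.05e-06) and -2.48 in control skin (adjusted p = 1.1e-05, edgeR). The 8 Schwann lineage markers summed to 193 to 306 CPM in injured Nf1-KO skin and 156 to 160 in injured control skin, against 278 to 457 in uninjured Nf1-KO skin and 355 to 400 in uninjured control skin. Of them 2 rose (Sox10 and Foxd3) and 2 fell (Mbp and Erbb3) in Nf1-KO skin, while 4 fell and 0 rose in control skin. Sensory neuron markers summed to 51.9 to 71.2 CPM in injured Nf1-KO skin and 39.6 to 53.9 in injured control skin, against 9.41 to 16.8 in uninjured Nf1-KO skin and 8.08 to 20.8 in uninjured control skin, yet of the 8 tested only 2 rose in each genotype, while 2 fell in Nf1-KO skin and 3 in control skin. Most of that sum in injured skin was Tubb3, a neuronal tubulin, at 48.2 ± 15.4 CPM in injured Nf1-KO skin and 43.8 ± 8.43 CPM in injured control skin, against 1.61 ± 0.873 CPM in uninjured Nf1-KO skin and 1.66 ± 0.138 CPM in uninjured control skin (SD, n = 3 each). Scn9a and Scn10a, sodium channels of sensory neurons, fell in both genotypes, from levels not far above the receptor-gene background. Uninjured Scn9a averaged 0.37 CPM per kb in Nf1-KO skin and 0.43 in control skin, and uninjured Scn10a 0.23 and 0.42. The background there was 0.110 to 0.206 CPM per kb in Nf1-KO libraries and 0.0944 to 0.332 in control libraries. Its part in these falls was not tested. The 4 sympathetic neuron markers summed to at most 6.68 CPM in any library. The part of these cell types and of the ribosomal RNA-like share in the changes of Ret, Gfra2, Ntf3, Gdnf and Nrtn was not tested, and in bulk skin a change in the number of cells and a change in RNA per cell cannot be told apart.

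Ligands were set against their co-receptors in each library on the per-kb scale. The log2 ratio of Gdnf over Gfra1 was -1.86, -3.46 and -2.66 in injured Nf1-KO skin and -2.90, -0.97 and -2.17 in injured control skin, against -1.44, 0.61 and -1.14 in uninjured Nf1-KO skin and 0.75, 0.77 and -0.42 in uninjured control skin. Each injured library had a lower ratio than each uninjured library of its genotype. The log2 ratio of Nrtn over Gfra2 was 4.18, 5.21 and 4.29 in injured Nf1-KO skin and 6.57, 6.19 and 5.99 in injured control skin, against 6.97, 7.05 and 8.79 in uninjured Nf1-KO skin and 7.0, 6.54 and 7.94 in uninjured control skin. Injured Nf1-KO libraries had the lowest ratios of all 12, so Nrtn exceeded its co-receptor least in that group. In control skin the ratios of injured and uninjured libraries overlapped. The log2 ratio of Artn over Gfra3 was -2.91, -2.99 and -1.73 in injured Nf1-KO skin and -1.89, -2.35 and -4.95 in injured control skin, against -4.09, -2.94 and -3.24 in uninjured Nf1-KO skin and -3.36, -4.49 and -2.87 in uninjured control skin, and these ranges overlapped between skin states in both genotypes. These ratios combine levels already given and were not tested.

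The effect of genotype was asked first in injured skin. None of the 9 genes was called between injured Nf1-KO and injured control skin, and neither was any of the 23635 genes tested (0%). At an unadjusted p under 0.05 there were 2 of the 9 genes, Gfra2 and Nrtn, against 10.7% of all genes, and DESeq2 called none of the 9 and 124 genes in all. Groups did not overlap for the same 2 genes, against 9.05% of all genes. The median log2 fold change of the 9 genes was 0.19, beside 0.12 over all genes.

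Gfra2 had 19.2, 11.9 and 23.5 CPM in injured Nf1-KO skin, against 7.82, 7.60 and 8.69 CPM in injured control skin. The control libraries lay close together and each Nf1-KO library was above them. The log2 fold change was 1.17 (95% interval 0.49 to 1.86, unadjusted p = 0.00217, adjusted p = 0.355, edgeR), so a 2.26-fold higher level did not pass after adjustment over all genes. Nrtn had 100.4, 127 and 133 CPM in injured Nf1-KO skin, against 214, 161 and 159 CPM in injured control skin, with a log2 fold change of -0.57 (95% interval -1.12 to -0.01, unadjusted p = 0.0472, adjusted p = 0.462, edgeR). Of the other 7 genes, none had an adjusted p below 0.797, and their log2 fold changes ran from -0.62 for Gdnf to 0.57 for Artn. For Ret, the interval of -0.43 to 0.80 on the log2 scale bounds the difference between the genotypes.

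Markers of the Schwann lineage and of macrophages were read in the same libraries. The 8 Schwann lineage markers summed to 193 to 306 CPM in injured Nf1-KO skin, against 156 to 160 CPM in injured control skin. Sox10, a transcription factor listed here as a Schwann lineage marker, averaged 25.7 ± 17.6 CPM in injured Nf1-KO skin and 10.0 ± 3.29 CPM in injured control skin (SD, n = 3 each). Its injured Nf1-KO libraries ranged from 12.5 to 45.7 CPM. Erbb3, the most abundant of the 8 markers in injured skin, went the other way, at 75.1 ± 5.08 CPM in injured Nf1-KO and 83.2 ± 5.03 CPM in injured control skin. Of the 8 markers, 6 had an unadjusted p under 0.05 and 0 were called in edgeR, with a median log2 fold change of 1.44. Over all genes, 10.7% had an unadjusted p under 0.05, and the median log2 fold change was 0.12. The 5 macrophage markers summed to 272 to 683 CPM in injured Nf1-KO skin and 216 to 306 CPM in injured control skin, with 5 at an unadjusted p under 0.05 and 0 called. Other lists also held such genes: 2 of 4 suprabasal keratinocyte, 2 of 8 tested sensory neuron and 1 of 3 Merkel cell markers. Whether Schwann lineage cells or macrophages carry the Gfra2 of injured Nf1-KO skin was not tested.

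Uninjured Nf1-KO skin differed from uninjured control skin at none of the 9 genes, and at 7 of 23635 genes tested (0.0296%). Only Nrtn among the 9 had an unadjusted p under 0.05, against 8.34% of all genes, and DESeq2 called none of the 9. The median log2 fold change of the 9 genes was -0.07, beside -0.04 over all genes. Nrtn had 225, 177 and 406 CPM in uninjured Nf1-KO skin, against 167, 138 and 183 CPM in uninjured control skin, a log2 fold change of 0.72 (95% interval 0.17 to 1.28, unadjusted p = 0.0142, adjusted p = 0.537, edgeR). Replicate 2 of the Nf1-KO group lay within the control range, and without Nf1-KO replicate 3 the log2 fold change was 0.31. Ntf3 was the only one of the 9 genes whose groups did not overlap, against 14.8% of all genes. It had 8.78, 7.89 and 6.96 CPM in uninjured Nf1-KO skin, against 11.8, 13.3 and 11.9 CPM in uninjured control skin, a log2 fold change of -0.64 (95% interval -1.45 to 0.16, adjusted p = 0.716, edgeR). The remaining log2 fold changes ran from -0.88 for Gdnf (95% interval -2.03 to 0.27) to 0.19 for Gfra2 (95% interval -0.53 to 0.91).

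The last comparison asked whether injury acted differently in the genotypes, as injury in Nf1-KO skin minus injury in control skin. None of the 9 genes and none of the 23635 genes (0%) was called by edgeR, while DESeq2 called 37 genes, none of them among the 9. Nrtn alone had an unadjusted p under 0.05, against 10.8% of all genes, with a difference of -1.29 on the log2 scale (95% interval -2.08 to -0.50, unadjusted p = 0.00312, adjusted p = 0.442). That difference was called only when no expression filter was used, at -1.43 (adjusted p = 0.00395), and it was -0.86 without uninjured Nf1-KO replicate 3. The call of Nrtn in Nf1-KO skin and its absence in control skin are thus not shown to differ. The same holds for Gdnf, called in control skin only, with a difference of 0.26 (95% interval -1.43 to 1.95, adjusted p = 0.926). Gfra2 differed by 0.98 (95% interval -0.01 to 1.97, adjusted p = 0.469), Ntf3 by 0.83 (95% interval -0.35 to 2.02, adjusted p = 0.59) and Ret by 0.33 (95% interval -0.60 to 1.26, adjusted p = 0.807), and the Gfra2 difference was 0.36 without uninjured control replicates 1 and 2, a setting that leaves 1 uninjured control library, whose spread is assumed to be that of the other groups.

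**Figure D4:**
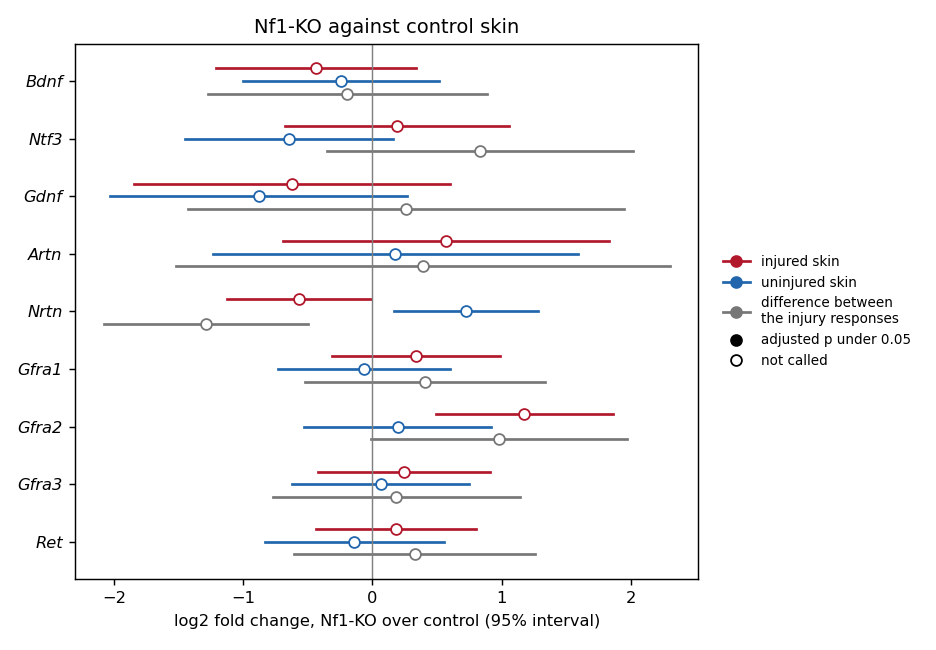
Log2 fold change of Nf1-KO over control for the 9 genes in injured skin (red) and uninjured skin (blue), with the difference between the injury responses (Nf1-KO minus control, grey); lines are 95% intervals. No point is filled because no gene was called, and the intervals of Nrtn in injured and uninjured skin lie on opposite sides of 0.

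Other genes of these pathways were counted from a list of 46, of which 45 were tested. In injured Nf1-KO skin 15 rose and 6 fell, with a median log2 fold change of 0.27, and in injured control skin 13 rose and 10 fell, with a median of 0.25. Called shares of all genes were 19.1% higher and 18.4% lower in Nf1-KO skin, and 22.8% higher and 32.5% lower in control skin. No list gene was called for genotype in injured or uninjured skin or for the difference between the injury responses. At an unadjusted p under 0.05 there were 4, 5 and 4 of the 45, against 10.7%, 8.34% and 10.8% of all genes. These counts are near the background and are not a result about the list.

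Of the 4 other GDNF family receptor genes listed, Gfra4, Ncam1 and Sdc3 rose in both genotypes. Beside them, 19.1% of all genes were called higher and 18.4% lower in Nf1-KO skin, and 22.8% higher and 32.5% lower in control skin. These 4 genes are too few to be read as a result about such receptors as a set. Sdc3, a heparan sulphate proteoglycan that binds GDNF, averaged 92.9 ± 55.4 CPM in injured Nf1-KO skin and 15.1 ± 4.09 CPM in uninjured Nf1-KO skin, a log2 fold change of 2.62 (adjusted p = 0.000444, edgeR). Ncam1, an adhesion molecule that GDNF can use without RET, had log2 fold changes of 1.95 in Nf1-KO skin (adjusted p = 0.00109) and 1.88 in control skin (adjusted p = 0.000919, edgeR). Gfral, the receptor of GDF15, fell in both genotypes, but on 11 counts in injured and 68 counts in uninjured Nf1-KO skin, and on 1 count in injured and 88 counts in uninjured control skin, so no fold is given. Its background share was 15.4% of the counts in uninjured Nf1-KO skin and 17.3% in uninjured control skin.

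Of the 5 neurotrophin receptors, 3 fell and none rose in control skin. Of all genes, 32.5% were called lower there and 55.3% in either direction. The receptors' called share is near that background and is not a result about them as a set. Ngfr, which encodes p75, averaged 2.81 ± 1.41 CPM in injured control skin and 7.68 ± 2.81 CPM in uninjured control skin, a log2 fold change of -1.43 (adjusted p = 0.00703). Ntrk3, which encodes TRKC, the receptor of the Ntf3 product, had a log2 fold change of -1.17 (adjusted p = 0.00338), and Ntrk2, which encodes TRKB, one of -0.67 (adjusted p = 0.0387, edgeR). These 3 were named after their values were seen. The receptor-gene background would give 2.0% of the Ntrk3 counts in injured control skin, against 38.8% in uninjured control skin, where it would give 11.2% of the Ntrk2 counts and 8.66% of the Ngfr counts. Its part in the Ntrk3 fall was not tested. In Nf1-KO skin none of the 5 was called, against 37.4% of all genes. There Ngfr averaged 6.50 ± 2.48 CPM in injured and 5.37 ± 0.329 CPM in uninjured skin, a log2 fold change of 0.27 (adjusted p = 0.6, edgeR). The difference between the injury responses was 1.70 for Ngfr (unadjusted p = 0.00758, adjusted p = 0.442) and 1.01 for Ntrk3 (unadjusted p = 0.0256, adjusted p = 0.445, edgeR), so it did not pass for either.

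Signalling outputs of RET and TRK rose at 5 and fell at 1 of 8 genes in Nf1-KO skin, and rose at 3 and fell at 1 in control skin. Of all genes, 19.1% were called higher and 18.4% lower in Nf1-KO skin, and 22.8% higher and 32.5% lower in control skin. These 8 genes are too few to be read as a result about the outputs as a set. Dusp6, a phosphatase induced by ERK, averaged 72.9 ± 13.5 CPM in injured Nf1-KO skin and 23.3 ± 1.46 CPM in uninjured Nf1-KO skin, a log2 fold change of 1.64 (adjusted p = 5.72e-05), and rose by 1.05 in control skin (adjusted p = 0.00127, edgeR). Egr1, an immediate early transcription factor, rose by 1.57 on the log2 scale in Nf1-KO skin (adjusted p = 0.000442), while in control skin its log2 fold change of 0.56 did not pass (adjusted p = 0.0899, edgeR). Etv4, an ETS factor that RET signalling is known to induce, rose by 2.15 on the log2 scale in Nf1-KO skin (adjusted p = 0.000838) and by 2.85 in control skin (adjusted p = 0.000111, edgeR). Spry1, an inhibitor of RET signalling in the kidney, had a log2 fold change of -1.40 in Nf1-KO skin (adjusted p = 0.00818) and -1.39 in control skin (adjusted p = 0.00493, edgeR). These outputs answer to many other receptors, and their tie to RET was not tested.

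Among adaptors and cytokines, Grb10, an adaptor that binds RET, rose in both genotypes, by 3.13 on the log2 scale in Nf1-KO skin (adjusted p = 1.22e-05) and 2.62 in control skin (adjusted p = 5.47e-05, edgeR). Manf, an endoplasmic reticulum stress protein with neurotrophic activity, rose by 1.28 on the log2 scale in Nf1-KO skin (adjusted p = 0.001) and by 1.94 in control skin (adjusted p = 3.53e-05, edgeR). Cntfr, the receptor of ciliary neurotrophic factor, rose by 1.94 in Nf1-KO skin (adjusted p = 0.000537) and by 2.66 in control skin (adjusted p = 4.93e-05, edgeR). Lifr, the receptor of leukaemia inhibitory factor, had a log2 fold change of -0.93 in Nf1-KO skin (adjusted p = 0.0308) and -1.13 in control skin (adjusted p = 0.00731, edgeR). The adaptors Dok6 and Shc3 were called lower in control skin, but the background would give 75.6% of the Dok6 counts and 41.0% of the Shc3 counts in uninjured control skin. Dok6 was also called lower in Nf1-KO skin, where the background would give 82.9% of its uninjured counts.

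**Figure D5:**
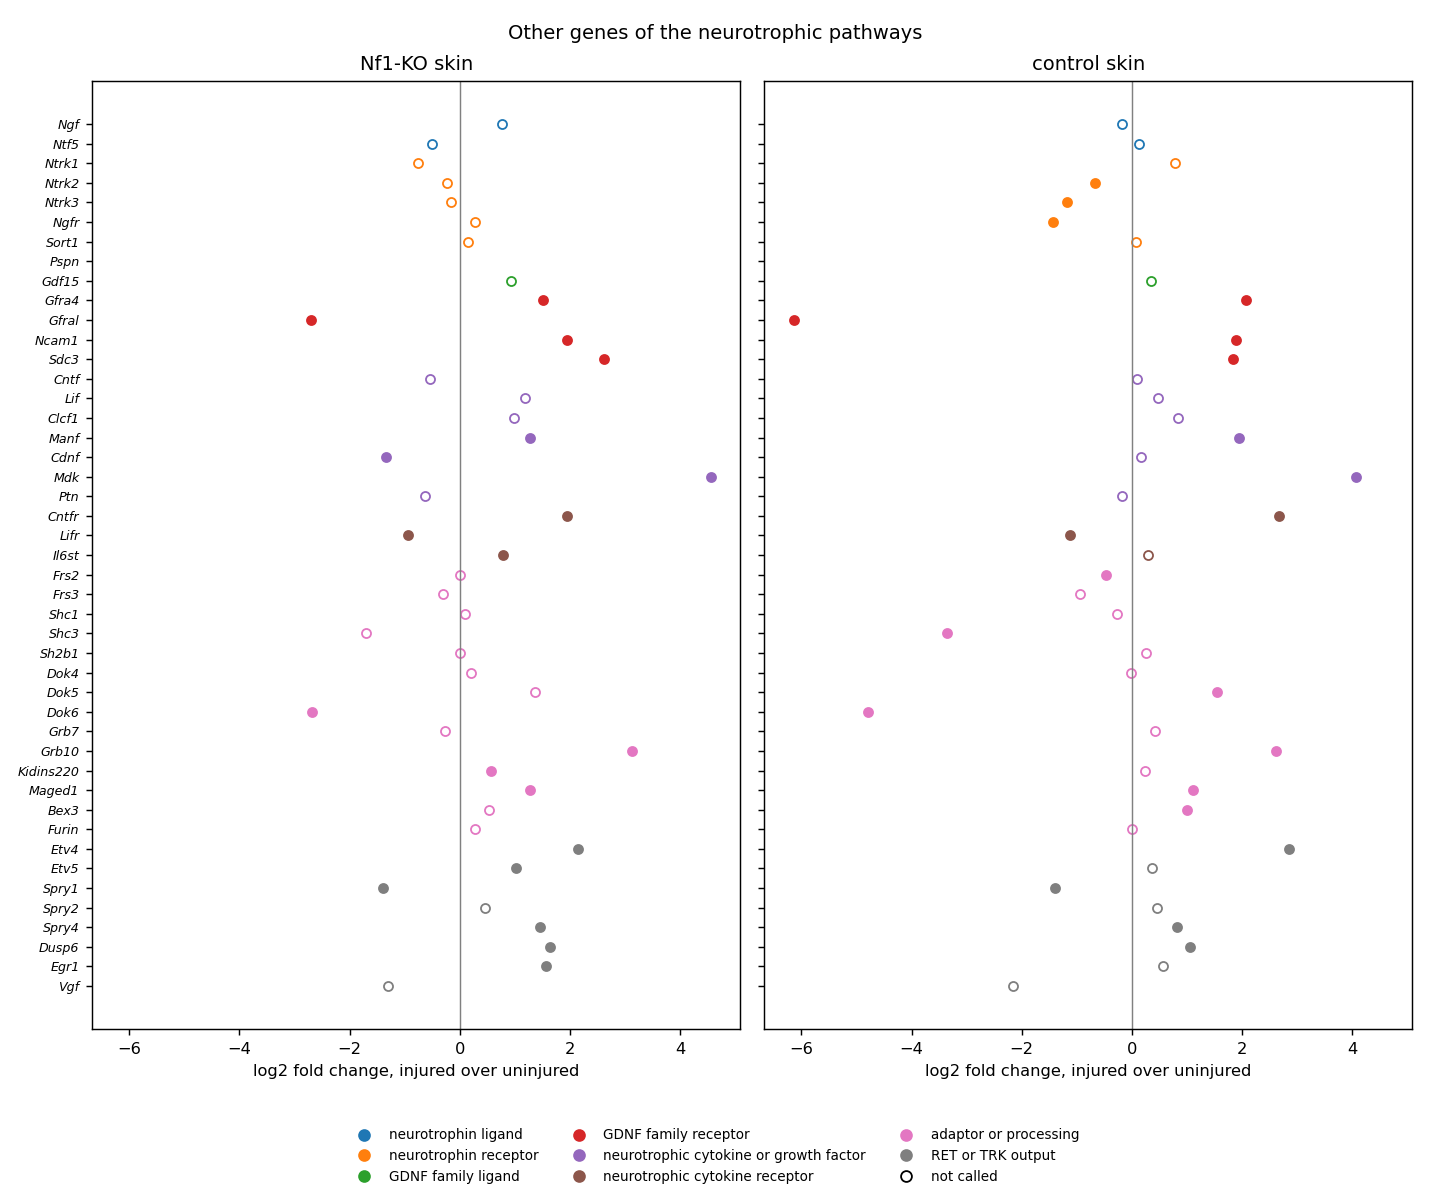
Log2 fold change of injured over uninjured skin for the tested genes of the wider pathway list except 1, coloured by role, in Nf1-KO skin (left) and control skin (right); filled points are called at adjusted p under 0.05 and Pspn was not tested. The GDNF family receptors Gfra4, Ncam1 and Sdc3 are right of 0 in both panels, and the Gfral value in control skin rests on 1 count in injured libraries.

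The genes whose levels followed each of the called members most closely were found by Pearson correlation of log2 CPM as deviations from the group means, over the 12 libraries and 13743 genes of at least 2 CPM. Ret was followed most closely by B4galnt4 (r = 0.977), Carns1 (r = 0.964) and Cep70 (r = 0.913). Ntf3 was followed by Cyp2j9 (r = 0.957), Lyz2 (r = 0.942) and Rasgef1c (r = 0.934), and Gfra2 by Cdyl2 (r = 0.925), Cdc42bpa (r = 0.923) and Klk14 (r = 0.920). Gdnf was followed by Lrrn4cl (r = 0.900), Aox1 (r = 0.892) and Ddc (r = 0.879), and Nrtn by Mir3082 (r = 0.974), Mtdh (r = 0.957) and Sys1 (r = 0.940). These are the highest values over all genes compared, from libraries that share depth and composition, and are given as a description.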

How the data were processed

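Raw read counts per Ensembl gene were deposited by the authors, 1 library per column per the file headers, and are whole numbers with differing totals. Per the labels' protocols, 10 ng of total RNA was amplified with Smart-Seq V4 and made into Nextera XT libraries, a route that does not mark the strand. The submitters' processing notes name the build mm10 and, without roles, HTSeq 0.5.3, STAR 2.5.2b, HOMER, SAMtools and DESeq2. Neither the annotation version nor the counter's strand option is given in the sources read here. In the tables, 1 column of no listed sample was not used.

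Symbols, coordinates and exonic lengths came from GENCODE M21, which matched 53274 of the 53379 IDs. All 12 libraries entered 1 fit in edgeR 4.0.16 (R 4.3.3): 4 group means, TMM, the default filter at a minimum count of 10, and robust quasi-likelihood F tests (2-sided), with Benjamini-Hochberg adjustment over 23635 genes and calls at adjusted p under 0.05. All 9 members passed the filter. Standard errors were derived from the F statistics, and 95% intervals use the fit's moderated degrees of freedom. The fit was tested on simulated counts. DESeq2 1.42.0 was an alternative. The other alternatives were a filter of 2 CPM in 3 libraries, no filter at all, median-of-ratios scaling, a replicate block, the compared groups alone, leaving out each library, subtraction of the receptor-gene background, leaving out uninjured control replicates 1 and 2 (the highest background), and the ribosomal RNA-like share (ribosomal RNA genes and their unannotated copies) as a covariate.

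The named genes are all 9 members, up to 4 called pathway genes per direction and comparison with the smallest p, and the 3 closest genes per member, of which those of the called members are given over deviations only. One gene of the pathway list is counted but not reported here by name or value. Several further pathway genes were named after their values were seen. The members and lists were chosen with earlier results of these data known.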

Additional observations from a re-analysis of the deposited data

How the results depend on the processing

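Ret kept its call in both genotypes under all 21 alternatives, as did Gfra2 and Nrtn in Nf1-KO skin and Ntf3 in control skin. The rest moved as follows, and the cause was not tested. In control skin the count of called members was 2 with the ribosomal RNA-like covariate (Gfra2 at 0.68, adjusted p = 0.258, and Gdnf at -1.05, adjusted p = 0.316, were lost) and 3 to 4 when libraries were left out. In Nf1-KO skin it was 7 without an expression filter, and 4 to 7 when libraries were left out. For the difference between the injury responses it was 1 without a filter.

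Signs turned only for values that were not called. For injury in control skin, Nrtn was -0.02 with background subtraction, -0.043 without uninjured control replicates 1 and 2, -0.30 with the covariate, and -0.0020 to 0.33 when libraries were left out, and Gfra1 was -0.068 without those 2 replicates. For Nf1-KO in uninjured skin, Artn was -0.061 without them and -0.038 with the covariate, and Gfra1 was 0.021 with the covariate; leaving out libraries gave -0.30 to 0.42 for Artn, -0.27 to 0.25 for Gfra1, -0.080 to 0.42 for Gfra2, -0.16 to 0.33 for Gfra3 and -0.27 to 0.066 for Ret. In injured skin it gave -0.21 to 0.49 for Ntf3, -1.001 to 0.32 for Gdnf and -0.036 to 0.39 for Ret. For the difference between the injury responses it gave -0.50 to 0.029 for Bdnf, -0.063 to 0.84 for Artn, -0.13 to 1.19 for Gdnf, -0.015 to 0.63 for Gfra1 and -0.071 to 0.35 for Gfra3, while Artn was -0.19 with background subtraction and Gfra3 -0.21 without uninjured control replicates 1 and 2. Leaving out those 2 replicates keeps 1 uninjured control library, assumed to vary like the other groups.

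Over all genes, injury in control skin gave 13072 calls, and 6164 without uninjured control replicates 1 and 2 and 8259 with the covariate, and injury in Nf1-KO skin gave 8851, and 5647 without uninjured Nf1-KO replicate 2. The share of calls that were higher was 50.9% in Nf1-KO skin and 41.3% in control skin by edgeR, and 39.7% in Nf1-KO skin and 29.8% in control skin by DESeq2. Nf1-KO in uninjured skin gave 7 calls, 219 without a filter, 60 by DESeq2, 27 with the compared groups alone, 4 with median-of-ratios scaling, 2 with the 2 CPM filter, 1 with the covariate, 1 with the replicate block and 0 to 12 when libraries were left out. Nf1-KO in injured skin gave 0, 410 without a filter, 124 by DESeq2, 3 with the covariate and 0 to 89 when libraries were left out. The difference between the injury responses gave 0, 236 without a filter, 37 by DESeq2, 2 with the covariate, 2 without uninjured control replicates 1 and 2, and 0 to 3 when libraries were left out. Median-of-ratios scaling lowered the median of all genes in the Nf1-KO injury comparison to -0.20, against -0.09.

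Same-numbered libraries deviated together at r of -0.42 to 0.38, above 0.1 in 4 of 18 pairs. Differently numbered libraries ran from -0.378 to 0.35. The replicate numbers thus showed no clear pairing, but deviations from means of 3 libraries constrain each other and cannot exclude it. With the replicate block, 5 members were called for injury in Nf1-KO skin, where Gfra1 was added, and 4 in control skin, and 0 in the other 3 comparisons. Counts of members at low level (Artn, Gdnf) limit their precision, and sex and injury cannot be told apart.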
